A study of Mus musculus with 8 samples.

Results

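The interferon regulatory factors (IRFs) are a family of transcription factors that share a DNA-binding domain and recognise GAAA repeats in the promoters of interferon and immune genes. The 8 family genes described here, Irf1, Irf2, Irf3, Irf4, Irf5, Irf7, Irf8 and Irf9, were taken by symbol from a table of read counts for 14980 genes, and each matched 1 row. The counts come from low-input RNA sequencing of macrophages, sorted as positive for MHC class II and CD64, from colon lamina propria tissue of 4 male mice. Each mouse gave a GPR35-positive and a GPR35-negative population, so 2 groups of 4 libraries were compared. GPR35 is a G protein-coupled receptor, and the series asked how macrophages with and without it differ. No treatment is given in the labels, and the sources used here give neither strain nor age. Counts per library summed to between 33776161 and 48609595 in the positive group and were fewer in the negative group, from 15999301 to 30071863.

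Family members divide by what switches them on. IRF3 and IRF7 are phosphorylated after nucleic acid sensing and start type I interferon production, and IRF5 carries Toll-like receptor signals through MyD88 to inflammatory cytokine genes. IRF9 is the DNA-binding part of the complex that answers type I interferon, IRF1 is induced by interferon-gamma, and IRF2 competes with IRF1 for its sites. IRF8 and IRF4 bind DNA weakly alone and act with partners such as PU.1 or BATF: IRF8 is needed for monocytes, macrophages and type 1 dendritic cells, while IRF4 is required for plasma cells and is also used by type 2 dendritic cells and some macrophages.

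The 2 populations were not of equal make-up, which bears on every value that follows. Gpr35 stood at 56.2 to 91.8 CPM (read counts scaled to a common library size) in the positive libraries and at 1.13 to 4.69 CPM in the negative ones. A list of 20 macrophage identity genes, among them Csf1r, Adgre1 and Mertk, summed to 43102 to 51314 CPM in positive and 4664 to 22646 CPM in negative libraries. Of the 20, 17 were called higher and 0 lower. Maf, Mrc1 and Cd163 were not called and overlapped between the groups. The mean of Cd163 was the lower one in positive libraries (35.4 ± 27.7 against 100 ± 73.7 CPM, SD, n = 4). A list of 15 B and plasma cell genes summed to 1379 to 2799 CPM in positive and 74054 to 144615 CPM in negative libraries. Of the 14 tested, 13 were called lower. The exception, Cd38, was not called (log2 fold change 0.55 ± 0.31), and with the replicate block it was higher (0.56, edgeR adjusted p = 0.0268). Of the B and plasma cell genes, the B cell factor Pax5 had no count in 4 of the 8 libraries, while the plasma cell genes Jchain, Mzb1 and Sdc1 had counts in all 8. Stromal and endothelial markers (10 of 12 called lower; 981 to 2039 against 5287 to 10279 CPM), epithelial markers (3 of 12 lower; 97.9 to 166 against 208 to 573 CPM) and granulocyte and mast cell markers (1 higher and 2 lower of 9 tested; 23.5 to 29.9 against 72.1 to 218 CPM) were also higher in sum in the negative libraries. Prg2 alone made up 43.2 to 171 CPM of the granulocyte and mast cell sums there. With the replicate block 5 epithelial markers and 1 granulocyte and mast cell marker were lower. For comparison, 18.4% of all tested genes were called higher and 19.5% lower, and 19.4% and 20.0% with the block. Negative replicate 1 held the most macrophage signal of its group and the least B and plasma cell signal. In sorted bulk RNA, fewer cells of a type and less RNA per cell cannot be told apart, and the part of cell make-up in the Irf values was not tested.

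Of the 8 Irf genes, 4 were higher in GPR35-positive cells (Irf8, Irf5, Irf9 and Irf7), 1 was lower (Irf4), and Irf1, Irf2 and Irf3 did not pass (edgeR quasi-likelihood test, Benjamini-Hochberg adjusted p under 0.05 over all 14193 tested genes). All 8 were tested. Calls were common in this comparison: 38.0% of all tested genes passed, 18.4% as higher and 19.5% as lower. A shared direction was common too: 29.4% of all tested genes were higher and 30.2% lower in all 4 animals. This fit had no term for the animal, although each animal gave both populations. With the animal as a block 5 of the 8 genes were higher, Irf1 among them, and 1 was lower. Of all tested genes 19.4% were then higher and 20.0% lower. Without the block the median log2 fold change (positive minus negative) of the 8 genes was 0.60, beside -0.05 for all tested genes. These directions depend on scaling: when the macrophage identity genes set the scale in place of TMM (trimmed mean of M-values), the median of all genes moved to -2.37, 0 of the 8 genes were higher and 6 were lower, beside 0.747% and 81.5% of all genes. Relative to that median the order of the genes was nearly the same, from 2.31 for Irf8 and 2.03 for Irf5, through 0.85 for Irf9, 0.83 for Irf1 and 0.63 for Irf7, to 0.28 for Irf2, -0.13 for Irf3 and -2.52 for Irf4.

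**Figure D1:**
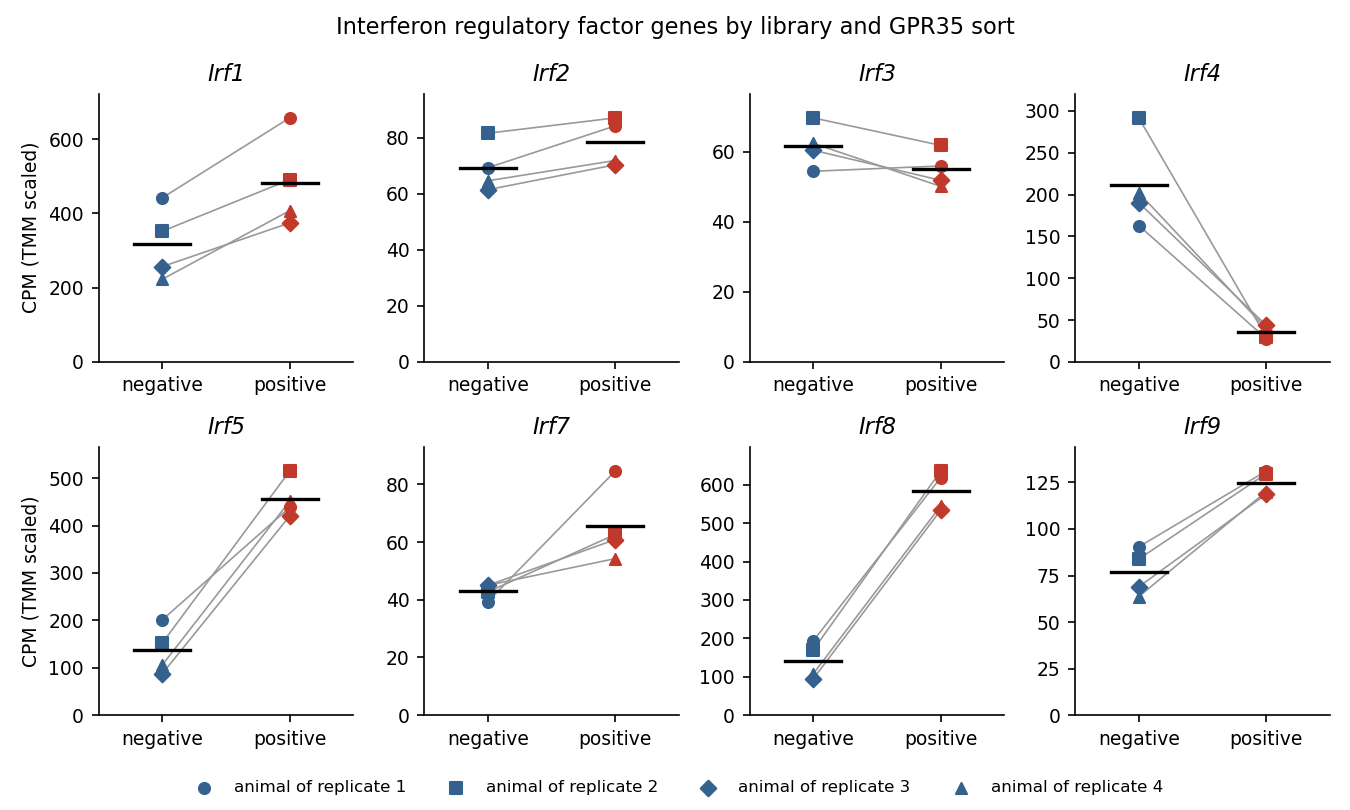
TMM-scaled CPM (vertical axes from 0, a different range in each panel) of the 8 Irf genes in the 4 GPR35-negative and 4 GPR35-positive libraries; grey lines join the populations of 1 animal and black bars are group means. Under this scaling Irf8 and Irf5 rose and Irf4 fell in all 4 animals with no overlap, while Irf2 and Irf3 overlapped; scaled to macrophage identity genes, Irf8, Irf5, Irf9, Irf7, Irf1 and Irf2 turned negative.

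Irf8 (Entrez gene 15900; chromosome 8, 120736358 to 120756694 in GRCm38.p6), the myeloid member, showed the largest increase of the family. Its level was 618, 635, 533 and 545 CPM in positive replicates 1 to 4 and 194, 170, 94.8 and 108 CPM in negative replicates 1 to 4. Every positive library lay above every negative one, which holds upward for 21.5% of all tested genes. The means were 583 ± 51.4 against 142 ± 47.7 CPM (SD, n = 4), a log2 fold change of 2.04 ± 0.24 (SE; edgeR adjusted p = 4.68e-04), and 96.1% of tested genes had a lower value. The difference was smallest in the animal of replicate 1 (1.67) and largest in that of replicate 3 (2.49), whose negative libraries held the most and the least macrophage identity signal. Scaled to the identity genes, the log2 fold change was -0.059 (edgeR adjusted p = 0.908).

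Irf5 (Entrez gene 27056; chromosome 6, 29526130 to 29541869), which links Toll-like receptors to cytokine genes, followed Irf8. The positive libraries held 438, 515, 420 and 451 CPM and the negative ones 201, 152, 87.7 and 106 CPM, again with no overlap. The log2 fold change was 1.74 ± 0.25 (edgeR adjusted p = 1.24e-03), higher in 4 of 4 animals, and -0.34 with identity scaling (adjusted p = 0.499). The Irf5 locus overlaps Tnpo3, a nuclear import receptor gene, and the library kit does not mark strand, so reads from shared sequence cannot be assigned; Tnpo3 itself stood at 80.5 ± 10.8 and 76.3 ± 6.36 CPM (log2 fold change 0.08 ± 0.13). Irf8 rose slightly more than Irf5: the Irf5 to Irf8 ratio per gene length was 0.920 to 1.08 in positive and 1.16 to 1.35 in negative libraries, lower in the positive library of each animal.

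Irf4 (Entrez gene 16364; chromosome 13, 30749233 to 30766981), the member required for plasma cells, went the other way. It stood at 28, 30.2, 43.9 and 40.0 CPM in positive replicates 1 to 4, and at 163, 292, 190 and 202 CPM in negative replicates 1 to 4. All negative libraries lay above all positive ones, as for 20.6% of tested genes. The log2 fold change was -2.57 ± 0.23 (edgeR adjusted p = 1.28e-04), lower in 4 of 4 animals and lower under every scaling tried. The order of libraries in Irf4 was set beside that in the plasma cell gene Jchain. Negative replicate 2 had the highest Irf4 and the highest Jchain share of counts (14.1%), and negative replicate 1 the lowest of both (7.37%), while replicates 3 and 4 were in opposite order (11.5% and 10.6% Jchain). Among the positive libraries, replicate 3 was highest in Irf4 and in Jchain (0.197%), replicate 4 came next in both, and replicates 1 and 2 were the lower pair in both, in opposite order. These are orders of 4 values each, given as a description, and the part of plasma cell RNA in Irf4 was not tested.

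**Figure D2:**
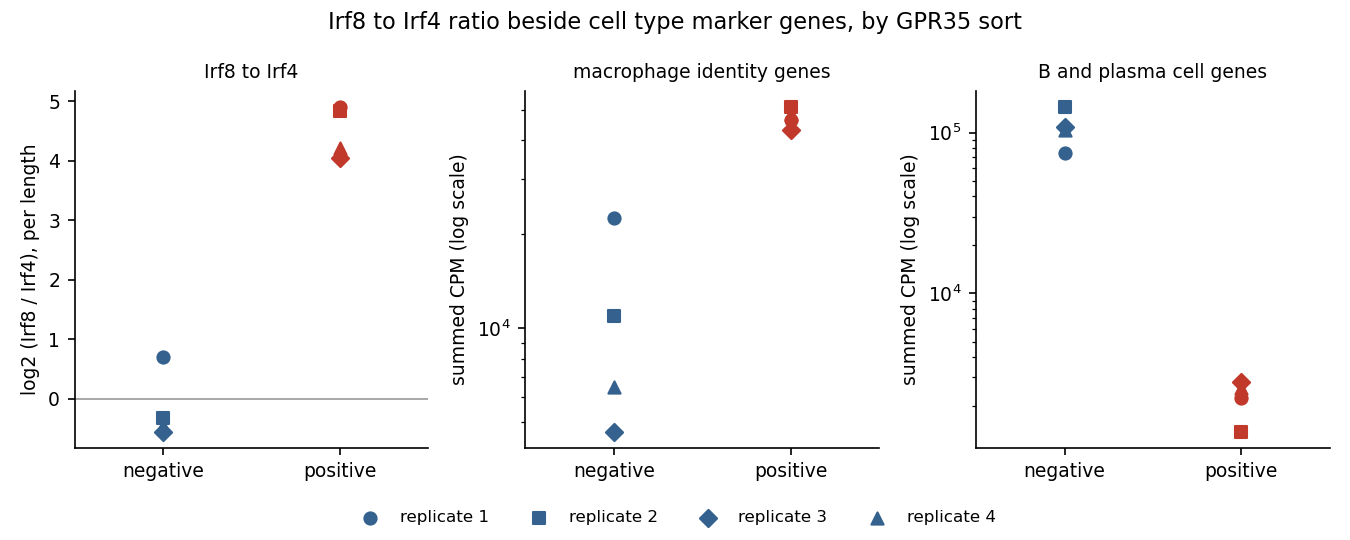
Log2 ratio of Irf8 to Irf4 per gene length (left), and summed CPM of 20 macrophage identity genes (middle) and 15 B and plasma cell genes (right; both on log axes), with 1 point per library. The ratio was 4.05 to 4.91 in GPR35-positive and -0.56 to 0.70 in GPR35-negative libraries, and both marker sums were also separated by group.

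A ratio of Irf8 to Irf4 within a library does not change with library scaling. Per gene length, Irf8 exceeded Irf4 by 30.1, 28.6, 16.6 and 18.6 times in positive replicates 1 to 4. In negative replicates 1 to 4 the ratio was 1.62, 0.795, 0.680 and 0.728, so that the pair was near parity and Irf4 was the higher in 3 of the 4. The log2 ratio differed by 4.67 (4.50 ± 0.44 against -0.16 ± 0.58, SD, n = 4), in the same direction in 4 of 4 animals. The exact 2-sided permutation p was 0.0286, the smallest that 4 against 4 libraries can give; sign flips within the 4 animals gave an exact p of 0.125, also the smallest possible. In the same libraries the B and plasma cell sum was lower and the macrophage identity sum higher in every positive library.

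Among the members of interferon signalling, Irf9 rose modestly. It held 131, 130, 119 and 120 CPM in positive replicates 1 to 4 and 90.4, 83.8, 68.9 and 63.7 CPM in negative replicates 1 to 4, without overlap. The log2 fold change was 0.70 ± 0.14 (edgeR adjusted p = 4.22e-03), higher in 4 of 4 animals, and -1.52 with identity scaling.

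Irf7, the interferon-inducible amplifier of type I interferon production, also rose. Its positive libraries held 84.5, 62.6, 60.8 and 54.2 CPM and its negative libraries 39.3, 42.7, 45.0 and 45.0 CPM. The negative libraries lay close together, and positive replicate 1 stood above the other positive libraries. The log2 fold change was 0.61 ± 0.15 (edgeR adjusted p = 0.0139); the call ended without the animal of replicate 3 (0.66, adjusted p = 0.058) and with library totals as the only scaling (0.32, adjusted p = 0.128), and the value was -1.74 with identity scaling. Irf3, its partner in interferon induction, did not pass: 55.9, 61.8, 51.8 and 50.1 CPM in positive and 54.4, 69.6, 60.4 and 62.4 CPM in negative replicates (-0.17 ± 0.12, edgeR adjusted p = 0.311). The groups overlapped for Irf3. It passed as lower with library totals as the only scaling (-0.46, edgeR adjusted p = 0.0147), and identity scaling put it at -2.49 (edgeR adjusted p = 1.78e-04).

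Irf1 (Entrez gene 16362; chromosome 11, 53770014 to 53778374) had the largest SD relative to its mean of all members in the positive group. It stood at 657, 491, 374 and 407 CPM in positive and 442, 352, 257 and 223 CPM in negative replicates 1 to 4, and the groups overlapped. Both populations of the animal of replicate 1 were the highest of their group and both of replicate 2 came next. Without a term for the animal the log2 fold change of 0.60 ± 0.26 did not pass (edgeR adjusted p = 0.0977). With the replicate block, which compares the populations within animals, it passed at 0.62 ± 0.13 (edgeR adjusted p = 0.0124), where 19.4% of all genes were called higher and 20.0% lower; it also passed without negative replicate 1 (0.80, adjusted p = 0.0292). With identity scaling Irf1 was at -1.54.

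Irf2, which occupies the same sites as IRF1, differed little, at 84.1, 87.0, 70.3 and 71.8 CPM in positive and 69.2, 81.5, 61.4 and 64.6 CPM in negative replicates. The positive library was higher in 4 of 4 animals, as for 29.4% of all tested genes, but the groups overlapped. The value of 0.18 ± 0.13 did not pass (edgeR adjusted p = 0.314, and 0.231 with the replicate block). It was -0.11 with library totals as the only scaling and -2.09 with identity scaling.

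**Figure D3:**
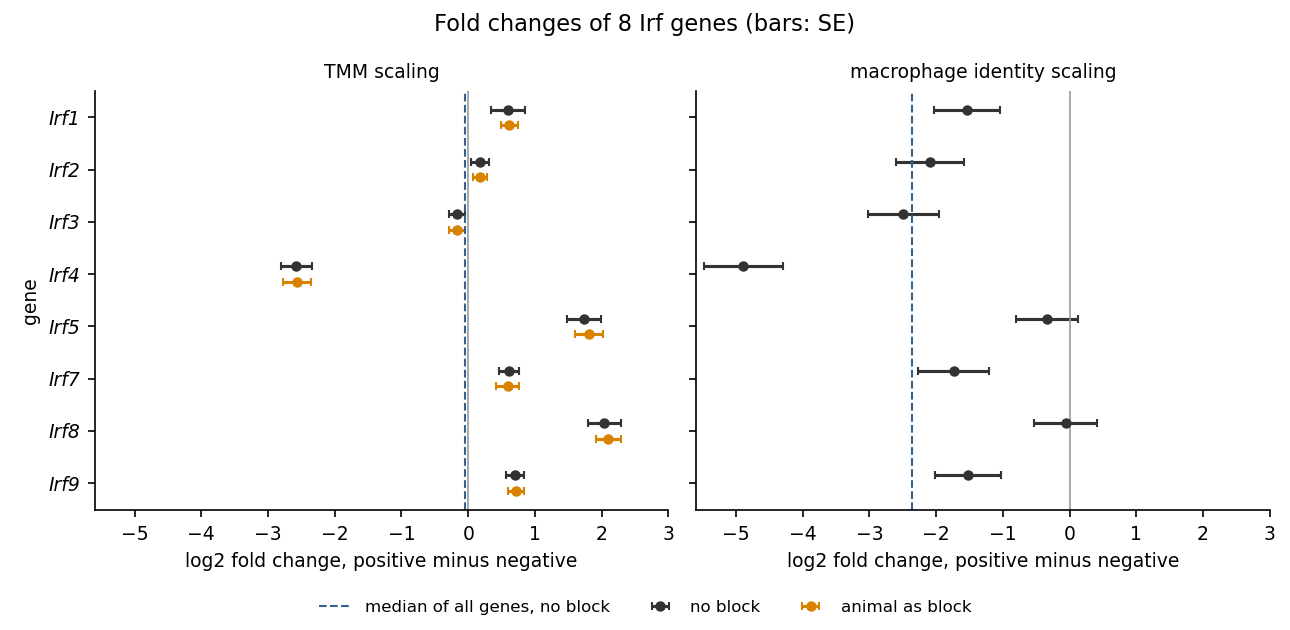
Log2 fold changes (horizontal axis, GPR35-positive minus GPR35-negative) of the 8 Irf genes with SE bars, under TMM scaling with and without the animal as a block (left) and with macrophage identity scaling without block (right); dashed lines mark the median of all genes without block. TMM values run from -2.57 for Irf4 to 2.04 for Irf8, and identity scaling moved the median from -0.05 to -2.37, leaving all 8 genes below 0.

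Levels of different genes were compared per kilobase of the gene length given in the table. In GPR35-positive cells the order was Irf5 (172 ± 15.6 CPM per kilobase), Irf8 (170 ± 15) and Irf1 (144 ± 37.6), whose ranges overlapped, then a gap to Irf9 (46.4 ± 2.39), Irf7 (35.3 ± 7.08), Irf2 (31.5 ± 3.42) and Irf3 (25.1 ± 2.38), with Irf4 far below at 7.59 ± 1.63. Of these neighbours, Irf9 and Irf7, and Irf7 and Irf2, overlapped in range, while Irf1 and Irf9, Irf2 and Irf3, and Irf3 and Irf4 did not. In GPR35-negative cells Irf1 came first (94.7 ± 29.4), in all 4 libraries above Irf5 (51.7 ± 19.2). Irf4 (45.2 ± 11.9) and Irf8 (41.2 ± 13.9) followed, and Irf5, Irf4 and Irf8 overlapped in range. Irf9 (28.5 ± 4.65), Irf3 (28.2 ± 2.87) and Irf2 (27.9 ± 3.56) were not separated, and Irf7 was lowest at 23.1 ± 1.44.

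As shares of the length-scaled counts of the 8 genes, which are free of library scaling, the family's make-up shifted. Irf8 took 26.9 ± 0.84% in positive and 11.9 ± 1.75% in negative libraries (SD, n = 4), and Irf5 27.4 ± 2.56% and 14.8 ± 2.86%. Irf4 took 1.23 ± 0.39% and 13.5 ± 3.36%, its lowest negative share being 8.56% in replicate 1 and its highest 15.8% in replicate 2. Irf3 took 3.99 ± 0.26% and 8.54 ± 1.84%, Irf2 4.99 ± 0.14% and 8.31 ± 1.02%, and Irf9 7.39 ± 0.41% and 8.44 ± 0.52%. For these 6 genes the groups did not overlap (exact permutation p = 0.0286 each, the smallest possible; 0.0381 after Benjamini-Hochberg adjustment over the 8 shares). The libraries are paired by animal, and exact sign flips within the 4 animals gave p = 0.125 for each (adjusted 0.143), the smallest they can give, so that no share passed the paired test. Irf1 (22.5 ± 3.68% and 27.4 ± 3.71%, exact permutation p = 0.114, adjusted 0.131) and Irf7 (5.57 ± 0.73% and 7.07 ± 1.79%, exact permutation p = 0.2) overlapped. Shares sum to a whole, so a gain of 1 gene lowers the others: Irf9 gained in CPM under TMM scaling while its share fell by 1.05 percentage points.

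**Figure D4:**
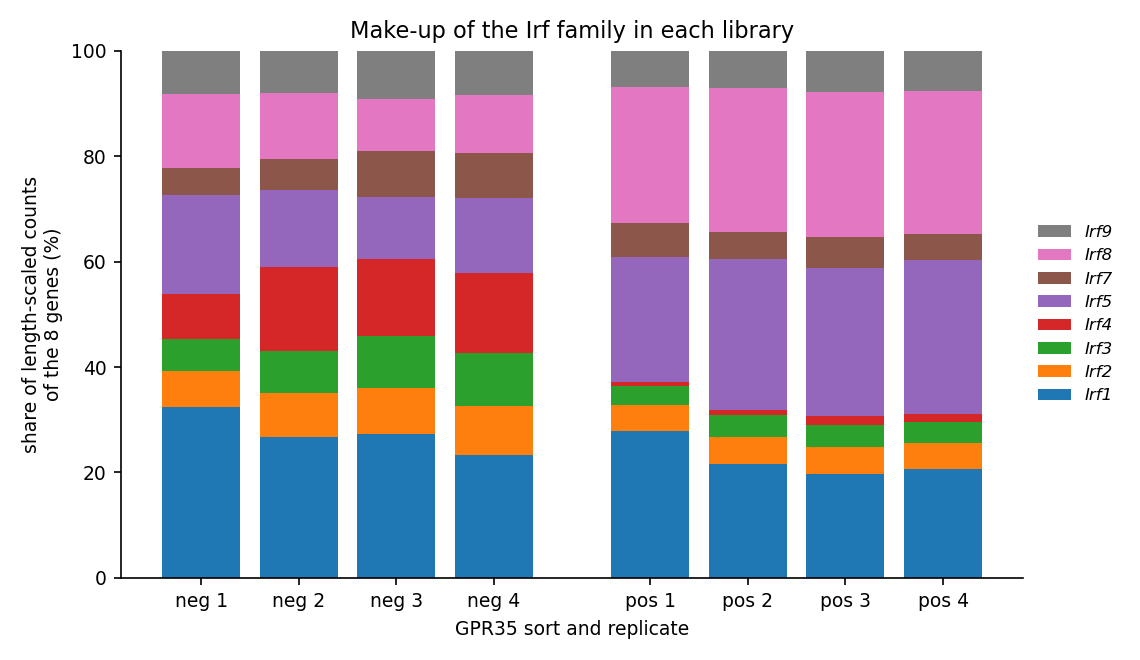
Stacked shares (%) of the length-scaled counts of the 8 Irf genes in each GPR35-negative (neg) and GPR35-positive (pos) library, by replicate. Irf8 and Irf5 average 26.9% and 27.4% in the positive libraries, where Irf4 takes 0.854% to 1.66%, against 8.56% to 15.8% in the negative libraries.

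Promoters of the 8 genes were taken as 250 bases before to 50 after each start in the RefSeq promoter set used here (GRCm38.p6). There were 11, since 3 genes have 2, and they were searched on both strands for 3 motifs. These were the interferon-gamma activated site, GAS (TTCNNNGAA), the interferon response element core (a pair of GAAA runs with any 2 bases between) and the composite of PU.1 and IRF (GGAA, any 2 bases, then GAAA). A GAS match was found for 3 of the 8 genes, in 3 of 11 promoters, beside 8.3% of all 32851 promoters in the table. Irf2 alone held the response element core and the composite, overlapping each other, beside 3.44% and 2.72% of all promoters. The matches below are on the gene's strand with the motif in capitals, and are shown because they set Irf1 and Irf8, with GAS letters close to their starts, beside Irf2.
Irf1 GAS, 90 bases before the start, chr11:53769914-53769942: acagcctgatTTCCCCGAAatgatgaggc
Irf8 GAS, 171 bases before the start, chr8:120736177-120736205: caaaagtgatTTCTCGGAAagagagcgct
Irf8 GAS, 153 bases before the start, chr8:120736195-120736223: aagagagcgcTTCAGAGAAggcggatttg
Irf2 GAS, 224 bases before the start, chr8:46739511-46739539: aaattgacttTTCCGAGAAatgatgaaag
Irf2 response element core, 241 bases before the start, chr8:46739495-46739523: tggggaagtGAAAATGAAAttgacttttc
Such matches describe letters and not binding. No GAS, response element core or composite match was found in the searched promoters of Irf3, Irf4, Irf5, Irf7 and Irf9. For Irf5 and Irf7 the searched start was not the outermost base of the gene. The Irf5 window began at chr6:29526375, inside the gene, which starts at 29526130, so the bases before the gene were not searched. The Irf7 window ended at chr7:141266674, and the gene, on the minus strand, reaches 141266499, so the 250 bases before it were searched only in part.

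The genes around the family were described from lists of the interferon pathway. Of 18 interferon ligand symbols only Ifnb1 and Ifng were in the table, and the others are not analysed here. Ifnb1, which encodes interferon-beta, was at 2.0 ± 0.38 and 1.16 ± 1.82 CPM and did not pass (0.77 ± 1.21, edgeR adjusted p = 0.642). Ifng, known from T and innate lymphoid cells, was lower in positive cells (0.850 ± 0.250 against 8.41 ± 6.05 CPM; -3.30 ± 0.57), as were 9 of 12 T and innate lymphoid cell markers, whose sums were 54.2 to 67.2 and 344 to 613 CPM. The largest parts of the negative sums were Cd28 (209 to 305 CPM) and Cd2 (82.8 to 182 CPM), while Cd3d, Cd3e and Cd3g stood at 1.13 to 13.7 CPM there. With the replicate block 5 of the 12 markers were lower and 1, Il7r, was higher. Of all tested genes 19.5% were lower, and with the block 20.0% were lower and 19.4% higher.

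Receptors and sensors upstream of the IRFs were mostly higher in positive cells under TMM scaling, and 0 genes of either list were higher with identity scaling. For comparison, 18.4% of all tested genes were higher and 19.5% lower under TMM scaling, and 81.5% were lower with identity scaling. Of 12 receptor and JAK-STAT genes 8 were higher and 0 lower (median 0.92; 7 lower with identity scaling). They included Ifnar1 (1.62 ± 0.20) and Ifngr2 (1.69 ± 0.22), subunits of the type I and type II interferon receptors, Ifngr1 (1.46 ± 0.21) and Usp18 (1.58 ± 0.23), an interferon-induced brake on that signalling. Of 22 sensors and adaptors that lead to IRF activation 16 were higher and 1 lower (median 1.32; 10 lower with identity scaling), but 10 were higher without the animal of replicate 3 and 9 without that of replicate 4. Myd88, the adaptor upstream of IRF5 and IRF7, was at 1.61 ± 0.19, Slc15a4, an endolysosomal transporter needed for IRF5 signalling, at 1.12 ± 0.14, Irak4 at 1.41 ± 0.20 and Mavs, the adaptor of RNA sensors, at 1.03 ± 0.14. The lower gene was Ddx58 (RIG-I, named outside the rule after its value was seen), at -0.75 ± 0.16.

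Genes of IRF partners were called in both directions, as were genes at large. Of all tested genes 18.4% were higher and 19.5% lower under TMM scaling, and 0.747% and 81.5% with identity scaling. Of 14 partners and corepressors 7 were higher and 3 lower (median 0.69; 0 higher and 9 lower with identity scaling, and 4 higher with library totals as the only scaling or without the animal of replicate 4). Spi1, which encodes PU.1, a partner of IRF8 and IRF4, stood at 446 ± 36.7 against 106 ± 53.8 CPM (2.08 ± 0.33), and Batf3, the AP-1 partner used in type 1 dendritic cells, was at 2.40 ± 0.42. Ikzf3 (Aiolos) was lower (-4.97 ± 0.54), as were Tcf3 (-1.18 ± 0.11), an E protein known from B cells, and Spib (-3.46 ± 0.81; named after its value was seen), a PU.1 relative of B cells and plasmacytoid dendritic cells. Prdm1 (Blimp-1), a target of IRF4 in plasma cells that macrophages also express, was higher (0.67 ± 0.17; named after its value was seen).

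Downstream, interferon-stimulated genes moved in both directions. Of 27 type I interferon-stimulated genes 10 were higher and 2 lower (median 0.61), beside 18.4% and 19.5% of all tested genes, and 4 were higher without the animal of replicate 3. With identity scaling 0 were higher and 17 lower, beside 0.747% and 81.5% of all genes. Their summed level overlapped between the groups, at 910 to 1372 CPM in positive and 979 to 1081 CPM in negative libraries. Oas1a (1.96 ± 0.38) and Mx1 (2.07 ± 0.40), antiviral effectors, were higher; Isg20, an exonuclease gene (-3.15 ± 0.18), and Bst2, or tetherin (-2.09 ± 0.32), were lower. Of 21 genes known from interferon-gamma and IRF1, 5 were higher and 4 lower (median 0.51), which is near the 18.4% and 19.5% of all tested genes. With the replicate block 9 were higher, and with identity scaling 0 were higher and 14 lower, where 81.5% of all genes were lower. Ciita, the class II transactivator (2.62 ± 0.34), Gbp3, a guanylate-binding protein gene (1.97 ± 0.26), and Cd74, the invariant chain (1.88 ± 0.27), were higher, and Tapbp, which encodes the class I loading factor tapasin, was lower (-0.69 ± 0.12). The number of lower genes was 7 without the animal of replicate 1 and 2 without that of replicate 2, 3 or 4.

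**Figure D5:**
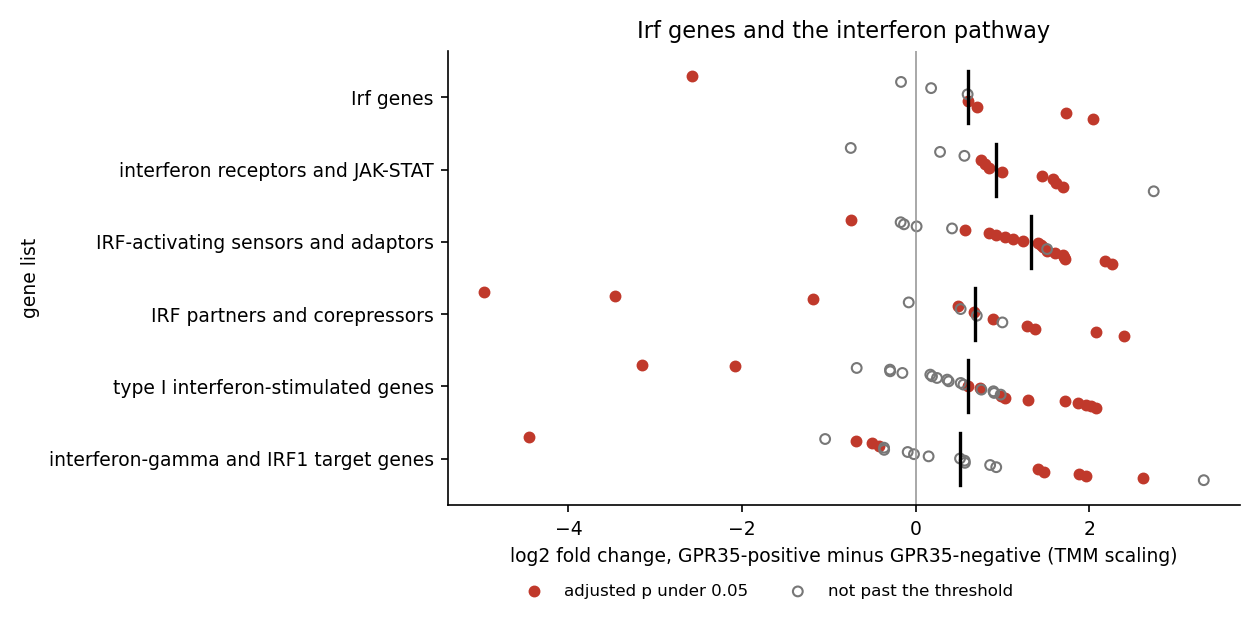
Log2 fold changes (horizontal axis, GPR35-positive minus GPR35-negative, TMM scaling) of the 8 Irf genes and of 5 interferon pathway lists, with 1 point per tested gene, filled where the edgeR adjusted p was under 0.05, and black bars at list medians. Medians lie between 0.51 and 1.32 under this scaling and below 0 with macrophage identity scaling.

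IRF8 and IRF4 also mark dendritic cells, so dendritic cell markers were set beside them. Of 12 conventional dendritic cell genes 5 were higher and 0 lower, beside 18.4% and 19.5% of all tested genes. Their sum was 1774 to 2043 CPM in positive and 255 to 734 CPM in negative libraries. Sirpa, which macrophages also express, was 1 of the 5, at medians of 1279 and 155 CPM. At 1130 to 1549 CPM it made up most of the positive sums. The other called genes were Cd209a (median 247 against 7.51 CPM; 4.70 ± 0.67), Cadm1 (184 against 15.6 CPM; 3.39 ± 0.54), Dpp4 (62.2 against 9.26 CPM; 2.93 ± 0.40) and Wdfy4 (52.3 against 23.6 CPM; 1.24 ± 0.20, and -1.17 with identity scaling). Xcr1, Clec9a and Flt3, further markers of these cells, did not pass, with medians of 17.2, 5.98 and 27.5 CPM in positive and 3.96, 1.38 and 11.3 CPM in negative libraries. Clec9a and Zbtb46 were each at 0 in 1 negative library. Several of these genes also ranged widely among the positive libraries. Cd209a stood at 29.0 to 257 CPM there, Flt3 at 4.85 to 36.1, Xcr1 at 2.52 to 18.3, Zbtb46 at 1.54 to 19.1 and Itgae at 0.793 to 15.8 CPM. Cadm1 (171 to 202 CPM), Dpp4 (45.5 to 80.5 CPM) and Wdfy4 (47.9 to 62.4 CPM) ranged less. Ccr7 (-0.94 ± 0.78) and Fscn1 (-0.86 ± 0.63) pointed lower and did not pass. With the replicate block 6 of the 12 were higher, Flt3 among them, and 1, Fscn1, was lower (edgeR adjusted p = 0.0112). Of all tested genes 19.4% were higher and 20.0% lower with the block. With identity scaling 2 of the 12 were higher and 3 lower, beside 0.747% and 81.5% of all genes. Of 9 plasmacytoid dendritic cell genes 3 were higher and 4 lower, beside 18.4% and 19.5% of all tested genes. Lair1, Cd300c and Cox6a2 were higher, and Ly6d, Tcf4, Ccr9 and Pacsin1 lower. The sums were 663 to 832 CPM in positive and 715 to 1052 CPM in negative libraries, but different genes made them up. Lair1 stood at 521 to 716 and 36.8 to 239 CPM, Ly6d at 3.78 to 11.4 and 210 to 689 CPM, and Tcf4 at 86.4 to 99.3 and 211 to 280 CPM. Siglech, a marker of these cells, was at 7.39 to 44.8 and 7.59 to 20.8 CPM, and the groups overlapped. The part of dendritic cells in the Irf8 difference was not tested.

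The genes whose log2 CPM followed Irf8 most closely over the 8 libraries, among the 9407 genes averaging 3 log2 CPM or more, were Scimp, Zfp36l2 and Bcl2a1d (each Pearson r = 0.998). Bcl2a1d has near-identical copies among which counting can split reads. For Irf4 they were Psip1 (0.997), Atat1 (0.996) and Prg2 (0.995), the last known from eosinophil granules. Siglecf and Ccr3, of the same granulocyte and mast cell list, did not follow Prg2 and were not called. Siglecf stood at 4.59 ± 2.04 CPM in positive and 1.18 ± 1.18 CPM in negative libraries, and Ccr3 at 1.78 ± 1.41 and 1.86 ± 1.64 CPM. Which cells gave the Prg2 reads was not tested. As the 8 points fall into 2 populations, high values were common: 754 genes exceeded 0.95 with Irf8 and 478 with Irf4.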

How the data were processed

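The authors deposited 1 table of raw read counts (whole numbers, not normalised) with gene lengths for 8 libraries. The submitters' processing notes name mm10 as build, and the tools STAR (2.5.2a) and R (3.4.2); the counting tool and the annotation: not given in the sources used here. Per the labels' protocols, SMART-Seq v4 cDNA and Nextera XT libraries were made, without molecular identifiers, so PCR copies count as reads. Of 14980 genes, 9 had an Entrez ID but no symbol (0.0179% of counts) and were kept.

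Counts were tested with edgeR 4.0.16 in R 4.3.3: filterByExpr (minimum count 10, minimum total 15; 14193 genes kept), TMM scaling and a robust quasi-likelihood test without block. SE was taken as the absolute log2 fold change divided by the root of F. CPM use TMM-effective library sizes; log2 CPM used a prior count of 2, which was also added to counts before ratios and shares. The test was checked on simulated data. Alternatives were RLE, library-size, upper-quartile and macrophage identity scaling, filters, no robust estimation, a prior count of 0.5, DESeq2 1.42.0, limma 3.58.1 voom, the replicate block, and leaving out animals or libraries; those for pathway lists were added after seeing the data. Exact permutation tests were run in Python 3.11.15. Gene coordinates and promoters are RefSeq's for GRCm38.p6, the assembly of mm10.

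The labels name the same animal for a positive and a negative library of each replicate number, so the numbers pair the libraries; across genes, the 2 libraries of an animal deviated from their groups with a correlation of 0.205, 0.206, 0.432 and 0.0637 in replicates 1 to 4. No replicates agreed within sampling noise (smallest chi-square per degree of freedom 25.4). The members, the 14 other gene lists and the tests were chosen with earlier results of these data known. The genes named are the 8 members, up to 4 genes with the smallest p of each pathway list, the 3 genes most correlated with Irf4 and Irf8, and Gpr35, Jchain and Csf1r as checks; others are marked or serve as cell type markers.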

Additional observations from a re-analysis of the deposited data

How the results depend on the processing

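Under the 23 alternative fits, Irf4 kept its direction and call in all. Scaling set most of the changes. The all-gene median went from -0.05 with TMM to -0.34 (library totals), -0.19 (upper quartile) and -2.37 (macrophage identity). With identity scaling 11670 genes passed, 0 members were higher and 6 lower, and the log2 fold changes of Irf1 (-1.54), Irf2 (-2.09), Irf5 (-0.34), Irf7 (-1.74), Irf8 (-0.059), Irf9 (-1.52), Ifnb1 (-0.52), Ifnar1 (-0.55), Ifngr1 (-0.67), Ifngr2 (-0.43), Usp18 (-0.64), Myd88 (-0.57), Irak4 (-0.81), Mavs (-1.29), Slc15a4 (-1.15), Gbp3 (-0.21) and Cd74 (-0.21) turned negative through that common shift. Each pathway list then had 0 genes higher, and 7 receptor and JAK-STAT genes, 10 sensors and adaptors, 9 partners, 17 type I interferon-stimulated genes and 14 interferon-gamma and IRF1 genes were lower. With library totals 5884 of the 14193 tested genes passed in either direction. Under that scaling 2 members were lower (Irf3 passed) and Irf2 was at -0.11. Also with library totals 1 receptor gene, 3 sensors and 4 type I interferon-stimulated genes were lower, and 4 partners were higher. With RLE or upper-quartile scaling, the filter of 5 CPM, DESeq2 with or without the replicate block, or voom, 1 receptor gene was lower in place of 0. For interferon-gamma and IRF1 genes voom gave 7 lower, DESeq2 with the block 9 higher and 7 lower, and the edgeR replicate block 9 higher. Of the 14193 tested genes, 6377 passed in either direction with voom, 6908 with DESeq2 and the block, and 5580 with the edgeR block. The numbers were 5383 with RLE scaling, 5503 with upper-quartile scaling, 6586 with DESeq2 without the block, and 4894 of 10802 with the filter of 5 CPM.

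The replicate block changed 1 member's call, that of Irf1 (0.62, edgeR adjusted p = 0.0124). Sign flips within animals, a paired test that cannot go below an exact p of 0.125, left the Irf8 to Irf4 difference at 4.67 and the share differences at 15.1 (Irf8), 12.6 (Irf5), -12.3 (Irf4), -4.55 (Irf3), -3.32 (Irf2) and -1.05 (Irf9) percentage points, none past the threshold.

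Leaving out 1 animal or 1 library gave 3281 to 5971 genes past the threshold and 3 to 5 members higher. Receptor genes lower ran from 0 to 1, sensors higher from 9 to 17 and lower from 0 to 1, partners higher from 4 to 8, type I interferon-stimulated genes higher from 4 to 14, and interferon-gamma and IRF1 genes higher from 5 to 9 and lower from 2 to 7. Without an animal, where 3 against 3 cannot go below an exact p of 0.1, the Irf8 to Irf4 difference was 4.50 to 4.82. The share differences were 14.2 to 16.2 (Irf8), 11.3 to 15.1 (Irf5), -13.8 to -11.4 (Irf4), -5.25 to -4.02 (Irf3), -3.74 to -3.01 (Irf2) and -1.16 to -0.96 (Irf9). The causes of these changes other than scaling were not tested. Each member had at least 718 reads in each library; without molecular identifiers these are not independent molecules, so the counting error is not known from them.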
